A study of Mus musculus with 474 samples.

Results

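The genes described here are 9 genes that glucocorticoids or metals are known to induce: Mt1, Mt2, Fkbp5, Tsc22d3, Klf15, Cdkn1a, Ddit4, Zbtb16 and Sesn1. They were chosen by symbol, all 9 were found among the 20612 genes deposited, and all 9 passed the filter on low counts that kept 18823 genes. They were measured by RNA-seq of skeletal muscle (the gastrocnemius, according to the study's methods) in Diversity Outbred mice, a stock bred from inbred strains so that no animals share a genome. There was 1 library per animal. Labels give the sex and a number, 17, 18, 19, 21 or 23, read here as the generation of the stock, which is an assumption, since 17 and 23 are not among the generations named in the methods. These generations held 48, 45, 49, 46 and 47 females and 46, 48, 50, 47 and 48 males, in that order. All animals were fed a high-fat, high-sugar diet, labelled as 45% fat, so no group had another diet. No hormone, metal or fasting treatment appears in the labels, nor do age and the hour of collection, and the comparisons are therefore among animals under 1 condition.

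Glucocorticoids, the steroid hormones of the adrenal cortex, are released in a daily rhythm and on stress. They bind the glucocorticoid receptor, which then enters the nucleus and switches target genes on or off. In skeletal muscle this response is known for slowing growth and for releasing amino acids from protein. Metallothioneins are small cysteine-rich proteins that bind zinc and copper, and their genes are induced both by metals, through the zinc-sensing factor MTF-1, and by glucocorticoids.

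The 9 genes fall into groups by role. Mt1 and Mt2 encode the metallothioneins, neighbouring paralogs on chromosome 8 whose starts lie 6.42 kb apart. Fkbp5 encodes a co-chaperone that lowers the affinity of the receptor for hormone, and Tsc22d3 encodes GILZ, an anti-inflammatory mediator of the hormone. Klf15 and Zbtb16 encode zinc-finger transcription factors, the first a regulator of amino acid breakdown and the second also called PLZF. Cdkn1a encodes the cell cycle inhibitor p21, a classic target of p53. Ddit4 (REDD1) and Sesn1 (sestrin 1) encode inhibitors of the TOR complex 1 growth pathway, Sesn1 also being a known p53 target. All 9 are protein-coding genes. On GRCm38 they lie at chr8:94179082-94180327 (Mt1, plus strand), chr8:94172664-94173568 (Mt2, plus), chr17:28399094-28517527 (Fkbp5, minus), chrX:140539528-140600659 (Tsc22d3, minus), chr6:90462576-90475238 (Klf15, plus), chr17:29090976-29100727 (Cdkn1a, plus), chr10:59949669-59951834 (Ddit4, minus), chr9:48654297-48836222 (Zbtb16, minus) and chr10:41809935-41908424 (Sesn1, plus). In GENCODE M21 other annotated genes overlap Mt2, Fkbp5, Cdkn1a and Sesn1, and none of those is in the deposited tables.

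Promoter sequences are shown for 4 genes whose windows held a motif of an input they are known for: metals for Mt1 and Mt2, the clock for Klf15 and p53 for Cdkn1a. Promoter windows of 300 bases came from RefSeq (GRCm38.p6), and 8 of the 9 genes had a window, 12 windows in all. Zbtb16 had none. Both strands were searched for the core of the metal response element (TGCACNC or TGCGCNC), the E-box bound by clock factors (CACGTG), the glucocorticoid response element (AGAACA and TGTTCT, 3 bases apart) and the p53 response element with at most 1 mismatch. The last 2 of these are long and rare in any promoter. The first 240 bases of each window are printed 5′ to 3′ on the plus strand, all upstream of the RefSeq start, with the motif in capitals. The sequences lie at chr8:94178839-94179078 for Mt1, chr8:94172368-94172607 for Mt2, chr6:90462326-90462565 for Klf15 and chr17:29090729-29090968 for Cdkn1a. No untranslated region overlapped them in GENCODE M21, and only the Mt2 stretch overlapped an exon, which belongs to the antisense gene Gm45774.
Mt1: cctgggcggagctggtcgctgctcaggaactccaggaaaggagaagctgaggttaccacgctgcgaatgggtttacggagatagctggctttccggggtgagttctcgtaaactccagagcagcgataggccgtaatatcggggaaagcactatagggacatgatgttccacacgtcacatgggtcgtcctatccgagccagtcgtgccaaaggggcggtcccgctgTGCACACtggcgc
Mt2: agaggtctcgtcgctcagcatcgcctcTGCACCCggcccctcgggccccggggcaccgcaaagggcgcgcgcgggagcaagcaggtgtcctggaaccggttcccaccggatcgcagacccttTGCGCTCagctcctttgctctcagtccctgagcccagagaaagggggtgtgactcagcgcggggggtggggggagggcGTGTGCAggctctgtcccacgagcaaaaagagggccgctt
Klf15: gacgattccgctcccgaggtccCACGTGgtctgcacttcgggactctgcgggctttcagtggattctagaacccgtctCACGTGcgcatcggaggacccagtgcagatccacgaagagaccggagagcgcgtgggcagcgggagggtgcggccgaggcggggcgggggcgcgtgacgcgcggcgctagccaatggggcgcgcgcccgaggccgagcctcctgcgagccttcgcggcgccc
Cdkn1a: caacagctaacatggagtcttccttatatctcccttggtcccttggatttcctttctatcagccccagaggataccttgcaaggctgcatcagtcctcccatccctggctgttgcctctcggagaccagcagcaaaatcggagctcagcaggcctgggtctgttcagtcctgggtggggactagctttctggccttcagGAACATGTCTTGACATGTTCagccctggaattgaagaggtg

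The Mt2 window held 4 metal response element cores, 3 of them in the printed stretch, and the Mt1 window held 3, of which 1 is printed. Of 32841 promoter windows of the same length, 25.7% held at least 1 such core, 1.97% at least 3 and 0.518% at least 4. The Klf15 window held 3 E-boxes, 2 of them printed, against 7.15% of windows with at least 1 and 0.0883% with at least 3. The capitals in Cdkn1a mark the p53 element, found in 29 of all windows (0.0883%). The full glucocorticoid response element was in 3 of all windows and in none of the 12 windows of these genes. The motifs did not follow these roles in every window: both windows of Sesn1 held 0 p53 elements, and the windows of Klf15 and Ddit4 each held 1 metal response element core and that of Fkbp5 1 E-box. These matches are descriptions of the letters, and binding was not measured.

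Total counts per library ranged from 35.9 to 165.7 M (mega-counts) with a median of 79.3 M. Levels are CPM, counts per mega-count of the library, after TMM scaling, whose factors ran from 0.871 to 1.29. Xist and Ddx3y, RNAs of the X and Y chromosome used to check the labels, missed the cutoffs set for the label in 5 libraries. Of these, 3 were labelled female (DO048, DO153 and DO347) and 2 male (DO193 and DO308). None of them had the pattern of the other sex. DO048 had 122.3 CPM of Xist and 10 counts of Ddx3y, and DO193 had 93.7 CPM of Ddx3y and 13.4 of Xist. DO153, DO347 and DO308 had 0.329 CPM of Xist or less and 0 counts of Ddx3y. A further animal, the female DO349 of generation 21, had the highest level of 5 of the 9 genes. Some of the results below are also given without these libraries. The total of 91.8 M, TMM factor of 0.998 and mitochondrial share of 9.16% of DO349 lay inside the range of all libraries. No pair of libraries in a group looked like the same library deposited again.

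The 9 genes varied widely between animals on 1 diet. Ddit4 ran from 1.67 to 329.4 CPM with a median of 45.6, the widest span of the 9. Mt1 ran from 0.733 to 66.7 CPM (median 9.52), and Mt2 ran from 0.803 to 82.6 CPM (median 8.34). The levels of these 3 genes thus spanned 91.0-fold or more between the lowest and the highest animal. Fkbp5 (19.2 to 279.6 CPM, median 76.9), Cdkn1a (9.03 to 162.0, median 37.7), Klf15 (10.8 to 181.6, median 29.2) and Sesn1 (9.28 to 331.5, median 23.7) were intermediate. Tsc22d3 (113.0 to 560.3 CPM, median 279.2) and Zbtb16 (63.5 to 346.6, median 146.0) varied least, over 4.96-fold and 5.45-fold. On the scale of the variance-stabilised values (VST, close to log2), after sex and generation were removed, the SD between animals was 1.21 for Ddit4, 1.02 for Mt2, 0.91 for Mt1 and 0.65 for Fkbp5, against 0.20 for the median gene. All 9 SDs lay at or above the 86.4 percentile of the genes tested, the lowest being that of Zbtb16 at 0.35.

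**Figure D1:**
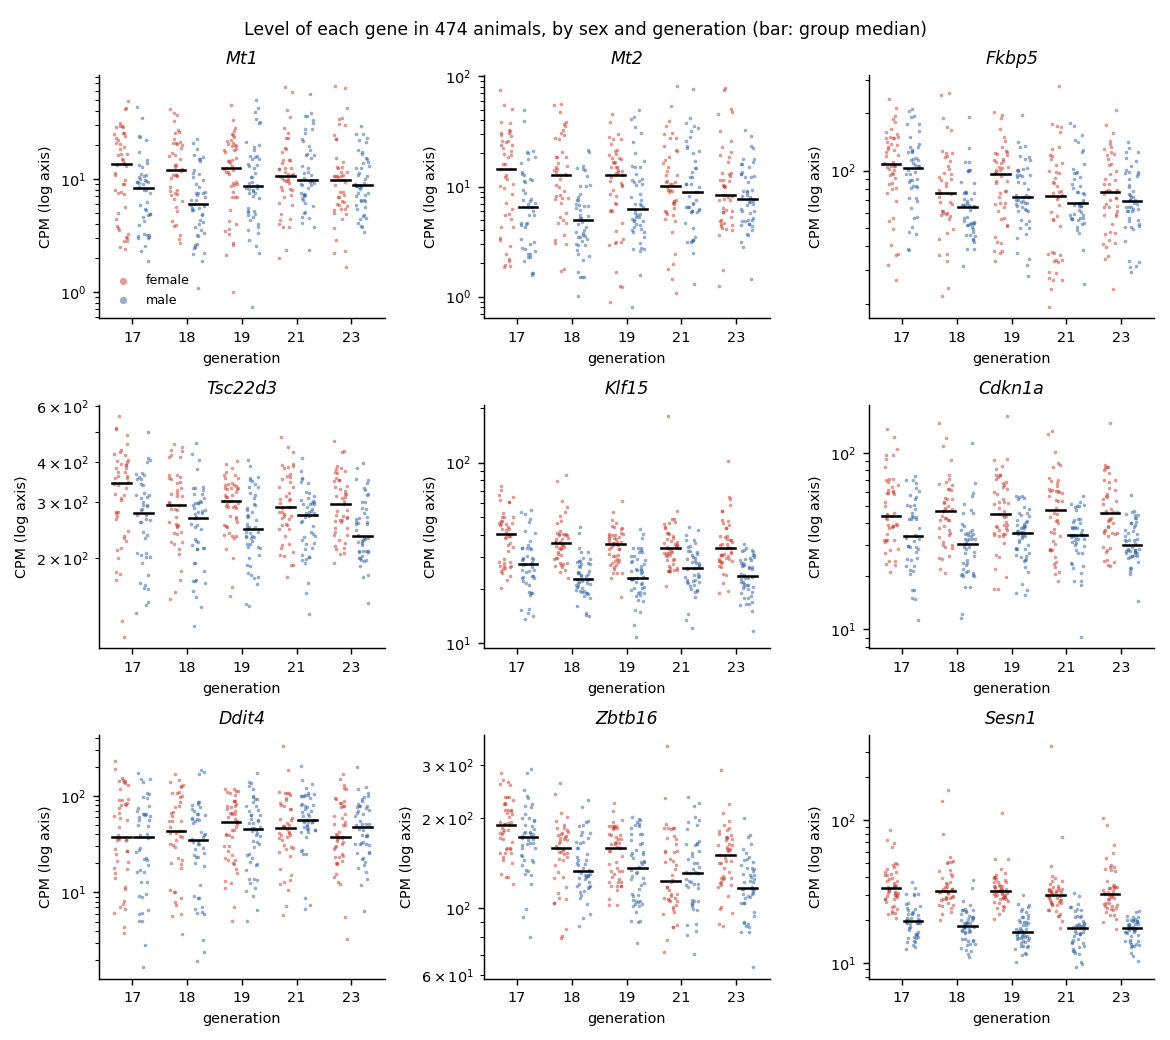
Level of each of the 9 genes in CPM (log axis) against generation, with 1 point per animal, females in red, males in blue and a black bar at the group median. The female medians of Sesn1 and Klf15 lie above the male ones in every generation, with points that overlap, while the medians of Ddit4 keep no common order. In both sexes the generation 17 medians of Fkbp5 and Zbtb16 are the highest, though their highest single points are in generation 21.

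Levels can be compared between genes only per length, so CPM was divided by the merged exon length in kb. On that scale Tsc22d3 had the highest median, 64.3 CPM per kb, followed by Zbtb16 at 27.6, Ddit4 at 26.0, Mt2 at 14.2, Cdkn1a at 10.6, Klf15 at 10.4, Fkbp5 at 8.12, Mt1 at 7.64 and Sesn1 at 5.94. Tsc22d3 exceeded Zbtb16 in 99.8% of animals, so that step was clear. Zbtb16 exceeded Ddit4 in 50.8% of animals, Cdkn1a exceeded Klf15 in 53.8% and Fkbp5 exceeded Mt1 in 54.0%, which leaves these neighbours without an order beyond their spread. The level of Mt2 is uncertain because the antisense gene Gm45774 covers part of it and the use of strand in counting is not stated, so reads of the pair cannot be told apart. Mt1 and Mt2 are also paralogs, between which the counting could split reads.

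Females had higher levels than males of 8 of the 9 genes. This comparison asks whether muscle of the sexes differs in the response genes under 1 diet. The share called over all genes tested was large, 55.0% at an adjusted p under 0.05, with 30.6% higher in females and 24.4% higher in males, and the count of 8 of 9 is read against that share. All differences below are male minus female on the log2 scale ± SE, from edgeR's quasi-likelihood test with generation as covariate and Benjamini-Hochberg adjustment over 18823 genes.

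Sesn1 had the largest difference, followed by Mt2, Cdkn1a and Klf15. Its level ran from 17.3 to 331.5 CPM in females (median 31.4) and from 9.28 to 38.4 CPM in males (median 17.7). Only 4 males (1.67%) lay above the female median. The log2 difference was -1.01 ± 0.0469 (edgeR adjusted p = 1.08e-69), a female level 2.01-fold the male one. This difference was larger than that of 98.1% of genes tested. Without DO349 it was -0.96 ± 0.0415.

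Klf15 and Cdkn1a, with smaller SEs than Mt2, differed in every generation. Klf15 ran from 17.9 to 181.6 CPM in females (median 35.2) and from 10.8 to 55.0 in males (median 24.4), with 20 males (8.37%) above the female median. Its log2 difference was -0.56 ± 0.0400 (edgeR adjusted p = 6.23e-36). Cdkn1a ran from 17 to 162.0 CPM in females (median 45.1) and from 9.03 to 113.7 in males (median 32.7), with 42 males (17.6%) above the female median and a log2 difference of -0.58 ± 0.0547 (edgeR adjusted p = 4.69e-22). The 3 genes Sesn1, Klf15 and Cdkn1a were higher in females in each of the 5 generations and passed the test in each, while 22.7%, 23.4%, 20.6%, 24.8% and 25.3% of genes passed within generations 17, 18, 19, 21 and 23.

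The metallothioneins differed less evenly. Mt2 had a median of 11.2 CPM in females (0.887 to 82.6) and of 6.67 in males (0.803 to 76.9), and the groups overlapped over nearly their whole range. Mt1 had a median of 11.1 CPM in females (1.00 to 66.7) and of 8.44 in males (0.733 to 56.2), with 33.1% of males above the female median. The log2 differences were -0.66 ± 0.115 for Mt2 (edgeR adjusted p = 7.35e-08) and -0.42 ± 0.0996 for Mt1 (edgeR adjusted p = 8.84e-05). Within generations the difference of Mt2 went from -1.38 in generation 18 to -0.09 in generation 21. That of Mt1 went from -0.95 in generation 18 to 0.03 in generation 21.

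The other called genes differed by less. Tsc22d3, at a median of 303.3 CPM in females (113.0 to 560.3) and 260.6 in males (122.3 to 499.1), had a log2 difference of -0.22 ± 0.0345 (edgeR adjusted p = 2.99e-09). Fkbp5, at 85.7 CPM in females (19.2 to 279.6) and 71.3 in males (25.2 to 212), differed by -0.18 ± 0.0604 (edgeR adjusted p = 0.00718). Zbtb16, at 157.6 CPM in females (71.7 to 346.6) and 135.0 in males (63.5 to 289.7), differed by -0.15 ± 0.0328 (edgeR adjusted p = 3.94e-05). Fkbp5 was lost on the deposited VST, where limma gave -0.10 (adjusted p = 0.135).

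Ddit4 was the 1 gene not called. Females had a median of 43.1 CPM (3.30 to 329.4) and males of 47.2 (1.67 to 202.2). The log2 difference was -0.08 ± 0.110 (edgeR adjusted p = 0.542), with a 95% interval from -0.30 to 0.13. Of the males, 130 (54.4%) lay above the female median, so the sexes overlapped fully. Its difference was above 0 in 2 of 5 generations and 3 of 5 stretches of library numbers, and none of these passed.

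Markers of other cells and fibre types moved with sex as well. All 6 slow fibre genes and 6 of 7 adipocyte genes were higher in females, against 30.6% of all genes tested. All 5 endothelial genes were higher in males, against 24.4%. The summed slow fibre level had a median of 3176 CPM in females (521.6 to 8681) and 2161 in males (745.8 to 7138), the adipocyte sum of 247.3 (90.1 to 1301) and 217.0 (101.8 to 712.4), and the endothelial sum of 194.0 (146.0 to 310.7) and 207.9 (153.0 to 304.6). With scores of 7 such marker lists in the model, 5 of the 9 genes were called, against 44.0% of all genes: Sesn1 (-0.87), Cdkn1a (-0.52), Klf15 (-0.41), Tsc22d3 (-0.16) and Zbtb16 (-0.10). Mt1 then had a log2 difference of -0.08 (edgeR adjusted p = 0.635), Mt2 of -0.23 (edgeR adjusted p = 0.176) and Fkbp5 of -0.11 (edgeR adjusted p = 0.245). In bulk tissue, fewer cells of a type and less RNA per cell cannot be told apart. Without the 5 libraries that missed the cutoffs of their label, 8 genes were called, against 54.8% of all genes. The log2 differences then ran from -1.02 for Sesn1 to -0.08 for Ddit4.

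**Figure D2:**
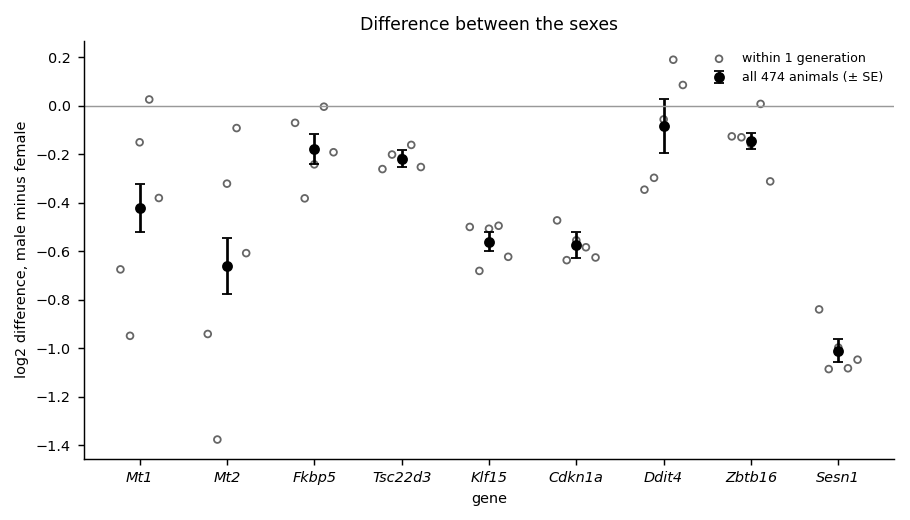
Log2 difference between the sexes (male minus female) for each gene, with black points and SE bars for all animals and open circles for each generation. Sesn1 lies lowest at -1.01, the circles of Mt1 and Mt2 are the most scattered of the called genes, and the SE bar of Ddit4 crosses 0.

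Fkbp5 and Zbtb16 differed between generations, against 7.56% of genes tested. Fkbp5 had a median of 106.0 CPM in the 94 animals of generation 17 (26.6 to 236.7) and of 67.7 to 79.6 in the other generations. The range of its fitted levels was 0.50 on the log2 scale (edgeR adjusted p = 8.80e-06). Zbtb16 went from a median of 178.7 CPM in generation 17 to 147.7, 143.5, 130.6 and 129.4 in generations 18, 19, 21 and 23, a fitted range of 0.43 (edgeR adjusted p = 2.50e-14). In both genes, generation 17, whose number rests on the assumption above, was the highest, and single animals of all generations overlapped. Within stretches of 91 to 96 library numbers, described below, Zbtb16 passed in 2 of 5 and Fkbp5 in none, while 0.430%, 0.478%, 0.935%, 0.324% and 0.287% of all genes passed in stretches 1 to 5.

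The other 7 genes were not called between generations. Klf15 had a fitted range of 0.22 (edgeR adjusted p = 0.0530) and Sesn1 of 0.17 (edgeR adjusted p = 0.203). Both passed when DO349 was left out, as did 8.02% of all genes, with adjusted p of 0.0297 and 0.00654 by edgeR and ranges of 0.22 and 0.24. Mt1 and Mt2 had wider fitted ranges, 0.48 each, that did not pass (edgeR adjusted p = 0.256 and 0.398) beside their wider spread. The ranges of Ddit4 (0.31), Cdkn1a (0.16) and Tsc22d3 (0.13) did not pass either.

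No gene of the 9 passed the test of the interaction between sex and generation, which 0.531% of genes passed with edgeR. At an unadjusted p under 0.05 there were 3, Mt2 (p = 0.00290 in the edgeR fit), Mt1 (p = 0.0132 in the edgeR fit) and Zbtb16 (p = 0.0474 in the edgeR fit), against 5.97% of all genes. With limma on the VST 0 of all genes tested were called and 870 had an unadjusted p under 0.05. The differences between the sexes in separate generations are therefore not shown to differ.

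Library numbers fall into 5 stretches of 91 to 96 libraries whose meaning is not in the labels. Between them 47.4% of all genes passed the test and 2 of the 9 did, Klf15 with a range of 0.20 (edgeR adjusted p = 0.0300) and Sesn1 with 0.21 (edgeR adjusted p = 0.0403). The sex difference of Klf15, Cdkn1a and Sesn1 passed in all 5 stretches, within which 19.7%, 22.7%, 24.4%, 28.6% and 23.2% of all genes passed. Fkbp5 passed in none of them and was at 0.0047 in the second.

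Females also varied more in 2 of the genes. The distance of each animal from its group median, on the VST scale, was smaller in males by 0.15 for Fkbp5 (-0.15 ± 0.0380, limma adjusted p = 0.00549) and for Cdkn1a differed by -0.12 ± 0.0319 (limma adjusted p = 0.00523). Over all genes, 3.80% had more spread in females and 1.75% in males. Mt2 (-0.15, limma adjusted p = 0.140) and Sesn1 (-0.07, limma adjusted p = 0.128) did not pass.

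The highest animals recurred across genes. DO349 had 279.6 CPM of Fkbp5, 181.6 of Klf15, 329.4 of Ddit4, 346.6 of Zbtb16 and 331.5 of Sesn1, each the highest of all animals, against second values of 256.7, 102.2, 232.4, 289.7 and 164.2. It ranked in the top 10 of 8 of the 9 genes, with Mt2 at rank 21. DO489, a female of generation 23, was in the top 10 of 7 genes and had the highest Mt1. The 90 top 10 places were held by 45 animals, 73 of the places by females, and the 7 animals with 4 or more places were all female. These ranks are of CPM not adjusted for sex, and 8 of the 9 genes were higher in females. The genes also correlate with each other, so the places are not separate observations. No such count was made for other genes, so these have no background beside them.

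Across animals all 36 pairs of the 9 genes correlated positively. Correlations were taken on VST residuals after sex and generation in all animals. Pearson r ran from 0.259 for Tsc22d3 with Sesn1 to 0.949 for Mt1 with Mt2, with a median of 0.519, and Spearman rho ran from 0.228 to 0.945. All 36 permutation p-values were 1e-05, the smallest that 100000 resamples can give, and so were the values adjusted over the 36 pairs for r and for rho. At least 0.3 was reached by 33 pairs, against 2.17% of all pairs of genes tested. Leaving out the 2 animals farthest from the median of the first gene moved no r by more than 0.0503.

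**Figure D3:**
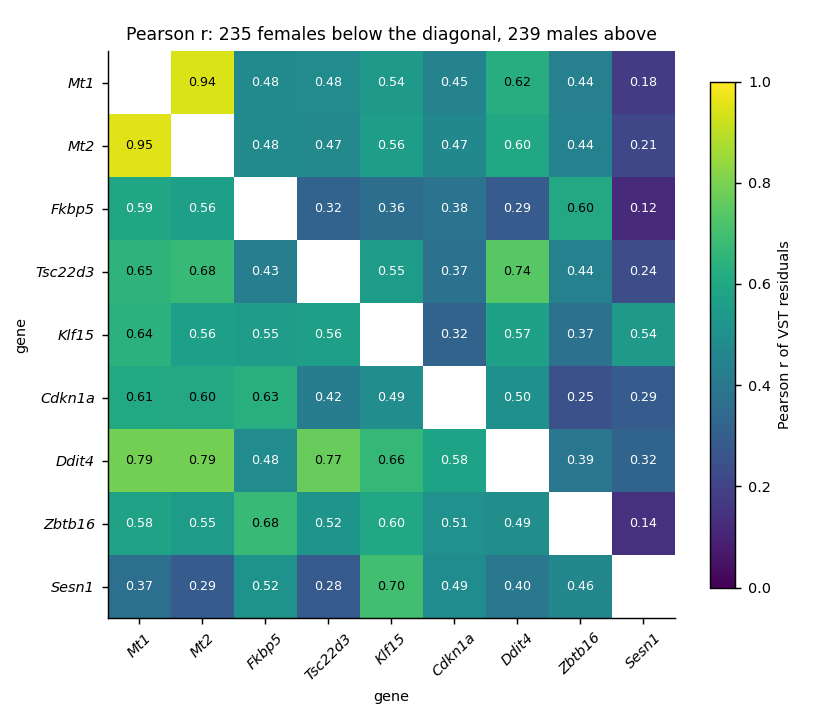
Pearson r of VST residuals for the 36 pairs, with females below the diagonal and males above it. Mt1 with Mt2 is the brightest cell in both sexes, and the 5 darkest male cells all belong to Sesn1, from 0.12 with Fkbp5 to 0.24 with Tsc22d3.

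The pair Mt1 and Mt2 moved nearly as 1 gene (r = 0.949, rho = 0.945, permutation p = 1e-05), and each had the other as its most alike gene of the 18822 others. Ddit4 stood close to Tsc22d3 (r = 0.754, rho = 0.739), to Mt1 (r = 0.711, rho = 0.730) and to Mt2 (r = 0.702, rho = 0.718). Among all genes tested, Ddit4 was the most alike to Tsc22d3 and the fourth most alike to both metallothioneins. Other close pairs were Fkbp5 with Zbtb16 (r = 0.638, rho = 0.611), Klf15 with Ddit4 (r = 0.621, rho = 0.653) and Klf15 with Sesn1 (r = 0.631, rho = 0.509). The rho of the last pair was lower than its r, and r without the 2 animals farthest in Klf15 was 0.581. Each r named in this paragraph had a permutation p of 1e-05.

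Sesn1 was the least tied to the others. Its r was 0.259 with Tsc22d3, 0.262 with Mt2, 0.295 with Mt1, 0.330 with Zbtb16, 0.363 with Ddit4, 0.385 with Fkbp5 and 0.418 with Cdkn1a, all with a permutation p of 1e-05. The first principal component of the 9 genes held 57.0% of their variance, with loadings of 1 sign from 0.242 (Sesn1) to 0.382 (Mt1). On the second, with 11.5%, Sesn1 had a loading of 0.70, Mt1 of -0.30 and Mt2 of -0.34.

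Within the 5 stretches of library numbers the lowest r of any pair was 0.125 (Zbtb16 with Sesn1), and 4 pairs fell below 0.2 in any stretch. With the marker list scores added to the adjustment r ran from 0.236 to 0.947, and without DO349 from 0.245 to 0.950. The pairs share libraries, and correlation with technical measures was low: that with log2 total count lay between -0.05 and 0.03 for the 9 genes and that with the mitochondrial share between -0.23 and 0.06. The TMM factor correlated with Tsc22d3 at -0.29 and with Zbtb16 at -0.23. The part of these measures in the pair correlations was not tested.

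**Figure D4:**
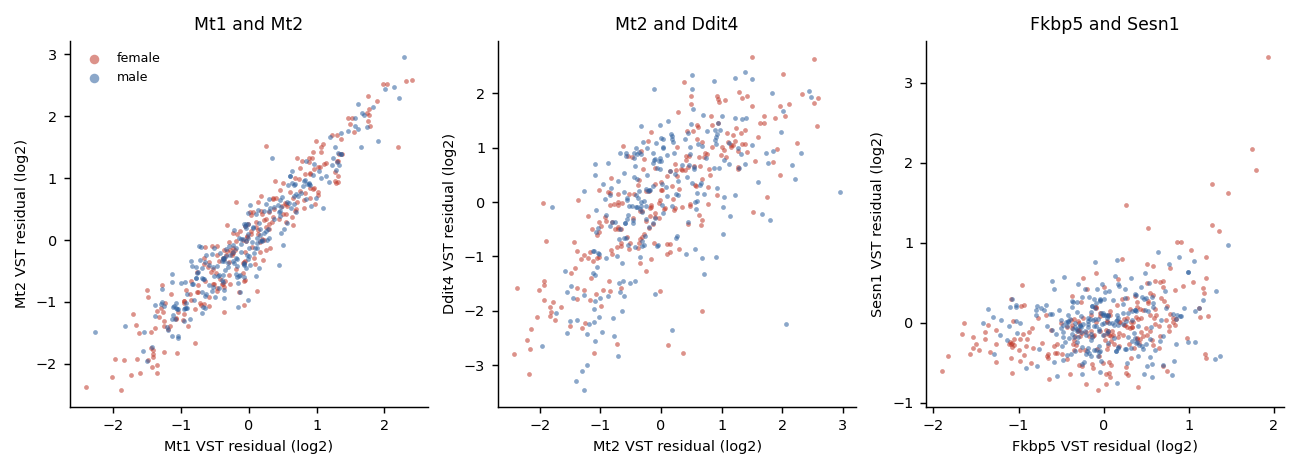
VST residuals (close to log2) of Mt1 against Mt2, Mt2 against Ddit4 and Fkbp5 against Sesn1, with 1 point per animal, females in red and males in blue. The points of Mt1 and Mt2 form a narrow band in both sexes, while high Sesn1 at high Fkbp5 is seen in female points above all.

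On the VST scale, correlations were higher in females than in males in all 36 pairs. Of the 36 differences, 10 passed a 2-sided permutation of the sex label within generation with 100000 resamples, adjusted over the 36 pairs. The pairs reuse the same genes and animals, so they are not separate observations. No share over all pairs of genes was computed for this difference, so these counts have no background beside them. Fkbp5 with Sesn1 had r = 0.515 in females and 0.122 in males, a difference of -0.39 (adjusted permutation p = 0.00288). Zbtb16 with Sesn1 had 0.464 and 0.143 (adjusted permutation p = 0.0142). Cdkn1a with Zbtb16 had 0.508 and 0.247 (adjusted permutation p = 0.0142), and Cdkn1a with Fkbp5 had 0.629 and 0.381 (adjusted permutation p = 0.0114). The metallothioneins differed with Tsc22d3 and with Ddit4: Mt2 with Ddit4 had 0.792 in females and 0.600 in males (adjusted permutation p = 0.00360), and Mt2 with Tsc22d3 had 0.679 and 0.471 (adjusted permutation p = 0.00396). Mt1 behaved alike, with 0.791 and 0.622 for Ddit4 (adjusted permutation p = 0.00531) and 0.650 and 0.484 for Tsc22d3 (adjusted permutation p = 0.0142). The 2 remaining pairs, Fkbp5 with Klf15 (0.551 and 0.360) and Klf15 with Zbtb16 (0.598 and 0.373), had an adjusted permutation p of 0.0868 and 0.0684 without DO349. Pairs that did not pass include Tsc22d3 with Ddit4 (0.767 and 0.742, adjusted permutation p = 0.593) and Mt1 with Mt2 (0.954 and 0.944, adjusted permutation p = 0.376).

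For each gene the most alike genes were looked for among all 18822 others, as a description with no test. Apart from each other, Mt1 and Mt2 were most alike to Prickle3 (r = 0.749 and 0.747) and to Bcl2l1 (r = 0.720 and 0.737). Bcl2l1, which encodes the survival protein Bcl-xL, was also among the 3 nearest genes of Cdkn1a (r = 0.607) and Ddit4 (r = 0.766). Ddit4 was nearest to the bile acid and steroid sulfate transporter gene Slc10a6 (r = 0.809) and to Gadd45g (r = 0.785), and Cdkn1a to Nfil3 (r = 0.654), a repressor in the clock output, and Ppp1r3c (r = 0.599).

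Plin4, which encodes a lipid droplet coat protein, was among the 3 nearest genes of Fkbp5 (r = 0.695), Klf15 (r = 0.729) and Zbtb16 (r = 0.652). Foxo1, a transcription factor of the fasting response, was near Fkbp5 (r = 0.693) and Zbtb16 (r = 0.675). Klf15 was nearest to Glul (r = 0.786), the glutamine synthetase gene, and Pim3 ranked 3 (r = 0.712). Rab7 was the third for Fkbp5 (r = 0.668), and Per1 and Arrdc2 followed Ddit4 for Tsc22d3 (r = 0.736 and 0.713). Sesn1 was nearest to Foxo3 (r = 0.665) and then, after 1 other gene, to Trim63 (r = 0.627), the muscle ubiquitin ligase MuRF1. All these rho values ran from 0.451 (Sesn1 with Trim63) to 0.805 (Ddit4 with Slc10a6).

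Foxo3 starts 371.9 kb from Sesn1 on chromosome 10 and was its most alike gene anywhere. Within 4 Mb of a start, Klf15 was most like Gm44117 (r = 0.575, 2.87 kb away), the metallothioneins beside each other like Adgrg1 (r = 0.561 for Mt1 and 0.551 for Mt2), Ddit4 like Anapc16 (r = 0.440, 37.7 kb away) and Zbtb16 like Scn2b (r = 0.344). Fkbp5 and Cdkn1a, 691.9 kb apart on chromosome 17, were each other's most alike neighbour (r = 0.535), and after that came Ip6k3 (r = 0.409) for Fkbp5 and Sik1 (r = 0.427) for Cdkn1a. The nearest for Tsc22d3 was Morf4l2 at r = 0.233. Neighbouring genes share founder haplotypes in this stock, and no genotypes were used here.

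The level of the receptor and its machinery was little related to these genes. Of 12 genes for the receptor, its cofactors, its chaperones and local hormone activation, 0 reached an r of 0.3 with any of the 9 genes, and the values ran from -0.14 to 0.26. Nr3c1, the receptor gene, had r from -0.06 (Cdkn1a) to 0.23 (Tsc22d3, rho = 0.210). Hsd11b1, whose enzyme regenerates active hormone in tissue, had r from -0.01 to 0.12. Of all genes, 1.23% (with Cdkn1a) to 2.28% (with Klf15) had r of at least 0.3 with 1 of the 9.

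Between the sexes, 3 of the 12 machinery genes were higher in females, 6 in males and 3 were not called. Of all genes tested, 30.6% were higher in females and 24.4% in males. Nr3c1 was higher in females (-0.28 ± 0.0212, edgeR adjusted p = 9.39e-32), as were Fkbp4 (-0.11) and the mineralocorticoid receptor gene Nr3c2 (-0.05). Hsd11b1 (0.39 ± 0.0329, edgeR adjusted p = 4.90e-27), H6pd, which supplies its cofactor (0.50), and the chaperone gene Hsp90aa1 (0.30) were higher in males. Of these 12 genes 1 differed between generations, against 7.56% of all genes tested: Hsp90aa1 with a range of 0.40.

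A list of 25 other known glucocorticoid targets correlated with the 9 genes far more than the machinery did. Both lists were chosen with earlier results of these data known, so this contrast is a description. The number of list genes with r of at least 0.3 was 18 for Ddit4, where 1.55% of all genes reached it. It was 16 for Mt1 (1.67% of all genes), Mt2 (1.64%), Tsc22d3 (1.50%) and Klf15 (2.28%). It was 14 for Cdkn1a (1.23% of all genes), 13 for Fkbp5 (1.72%) and Zbtb16 (1.43%) and 12 for Sesn1 (1.64%). Single list genes ran from r = -0.31 to 0.79 over the 9 genes, and 1 was at -0.3 or lower with Tsc22d3. The mean z-score of the list had r from 0.586 with Sesn1 to 0.812 with Ddit4. Per1, a target that is also a clock gene, had r = 0.741 with Ddit4 (rho = 0.722), 0.736 with Tsc22d3 (rho = 0.740), 0.594 with Mt2 and 0.590 with Mt1, but 0.212 with Fkbp5 and 0.225 with Sesn1. Foxo1 and Foxo3 were related to all 9: Foxo1 had r from 0.410 (Sesn1) to 0.693 (Fkbp5, rho = 0.674), and Foxo3 from 0.404 (Cdkn1a) to 0.708 (Klf15, rho = 0.678), with 0.665 for Sesn1.

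The same list was mixed between the sexes, with 12 genes higher in females, 5 in males and 8 not called. Over all genes tested 30.6% were higher in females and 24.4% in males. The median log2 difference of the list was -0.09 against -0.01 over all genes tested. Arrdc2 (-0.60), Pik3r1 (-0.53) and Foxo3 (-0.50) were the largest in females, and Hif3a (0.64), Cited2 (0.63) and the kinase gene Sgk1 (0.28) were the largest in males. Between generations 15 of the 25 were called, against 7.56% of all genes tested. The largest ranges were in the phosphatase gene Dusp1 (0.86), Rasd1 (0.82) and Angptl4 (0.64). Per1 did not differ between the sexes (0.07, edgeR adjusted p = 0.255).

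Klf15 is known to drive the breakdown of branched-chain amino acids and proline. Among 3 genes of that role, Prodh, which encodes proline dehydrogenase, had r = 0.628 with Klf15 (rho = 0.593), Bcat2, of the first step of branched-chain breakdown, had r = 0.336 (rho = 0.287), and the alanine transaminase gene Gpt had r = 0.167 (rho = 0.155). Prodh and Bcat2 were higher in females, as Klf15 was (-0.25 and -0.21, edgeR adjusted p = 1.41e-08 and 1.23e-11), and Gpt was not called (-0.05, edgeR adjusted p = 0.127). Prodh also differed between generations, with a range of 0.28.

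Of 10 genes of zinc handling, 2 had r of at least 0.3 with Mt1 and 2 with Mt2, against 1.67% and 1.64% of all genes. The median r of the list was -0.02 with each. The importer gene Slc39a14 was the most related of the 10 to the metallothioneins, with r = 0.553 for Mt1 (rho = 0.546) and 0.525 for Mt2 (rho = 0.522). It was related to other genes as well, with r = 0.507 for Zbtb16 and 0.486 for Fkbp5. Slc39a14 was higher in males (0.35, edgeR adjusted p = 1.20e-22), which is the direction opposite to that of the metallothioneins, and so were Slc39a10 (0.14) and the exporter gene Slc30a4 (0.14). Mt3, the brain-type metallothionein gene, had r = 0.347 with Mt1. The exporter gene Slc30a1 had r = 0.04 with Mt1 and 0.06 with Mt2. Mtf1, which encodes the zinc sensor, had r = -0.10 with both and was slightly higher in females (-0.08), as was Slc30a7 (-0.11).

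Cdkn1a and Sesn1 are both p53 targets, and their r was 0.418. Of 14 p53-related genes, those with r of at least 0.3 with Cdkn1a were Trp53inp1 (r = 0.332, rho = 0.312) and Btg2 (r = 0.323, rho = 0.309), and Mdm2, the classic feedback gene, had r = 0.183 with Cdkn1a and 0.119 with Sesn1. Trp53 itself had r = -0.11 with Cdkn1a. Trp53inp1 had its highest r with Ddit4 (r = 0.591, rho = 0.608). Between the sexes 5 of the 14 were higher in females, led by Gadd45a (-0.34), Zmat3 (-0.17) and Bbc3 (-0.13). In males 3 were higher, Eda2r (0.35), Phlda3 (0.33) and Trp53 (0.15). The shares over all genes tested were 30.6% higher in females and 24.4% higher in males. Between generations 2 of the 14 were called, against 7.56% of all genes tested, Btg2 with a range of 1.54 and Plk2 with 0.30.

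Ddit4 and Sesn1 share the role of a brake on TOR complex 1, with r = 0.363. None of the other 11 genes of TOR inhibition and amino acid stress reached r = 0.3 with Ddit4, and its paralog Ddit4l ran opposite (r = -0.42, rho = -0.412), as did Ddit3 (r = -0.34, rho = -0.338). With Sesn1, 1 of the 11 reached it, Chac1 (r = 0.351, rho = 0.259). The paralogs of Sesn1 were not related to it, with r = -0.02 for Sesn2 and 0.05 for Sesn3. Chac1 (0.62), Ddit4l (0.28) and Trib3 (0.15) were higher in males and Sesn3 (-0.20) and Depdc5 (-0.03) in females. In all, 6 of the 11 genes were higher in males and 2 in females, against 24.4% and 30.6% of all genes tested.

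The 14 clock genes divided the 9 genes. Cdkn1a had r of at least 0.3 with 4 of them and of -0.3 or lower with 4 (0.260% of all genes), positive with Arntl (r = 0.554, rho = 0.526) and Npas2 (r = 0.453, rho = 0.424) and negative with Per3 (r = -0.56, rho = -0.533) and Dbp (r = -0.50, rho = -0.471), that is, with the arms of the clock that peak at opposite times of day. Tsc22d3 correlated with Per2 (r = 0.470, rho = 0.454) and Ciart (r = 0.470, rho = 0.474) besides Per1. Sesn1 had r = -0.40 with Bhlhe41 (rho = -0.283). The first 2 principal components of the 13 clock genes other than Per1 held 26.1% of the variance of Cdkn1a, 19.2% of that of Tsc22d3, 17.6% of that of Klf15 and 6.91% of that of Sesn1. With them in the adjustment, all 36 pairs of the 9 genes still passed, at r from 0.215 to 0.944. The hour at which each animal was sampled is not in the labels, and its part was not tested.

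Clock genes also differed between the sexes, with Bhlhe41 (0.47), Per2 (0.26) and Nr1d1 (0.19) higher in males and Ciart (-0.35) and Per3 (-0.13) in females. In all, 4 of 14 were higher in males and 2 in females, against 24.4% and 30.6% of all genes tested. Of the clock genes, 1 differed between generations, against 7.56% of all genes tested: Ciart with a range of 0.58.

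**Figure D5:**
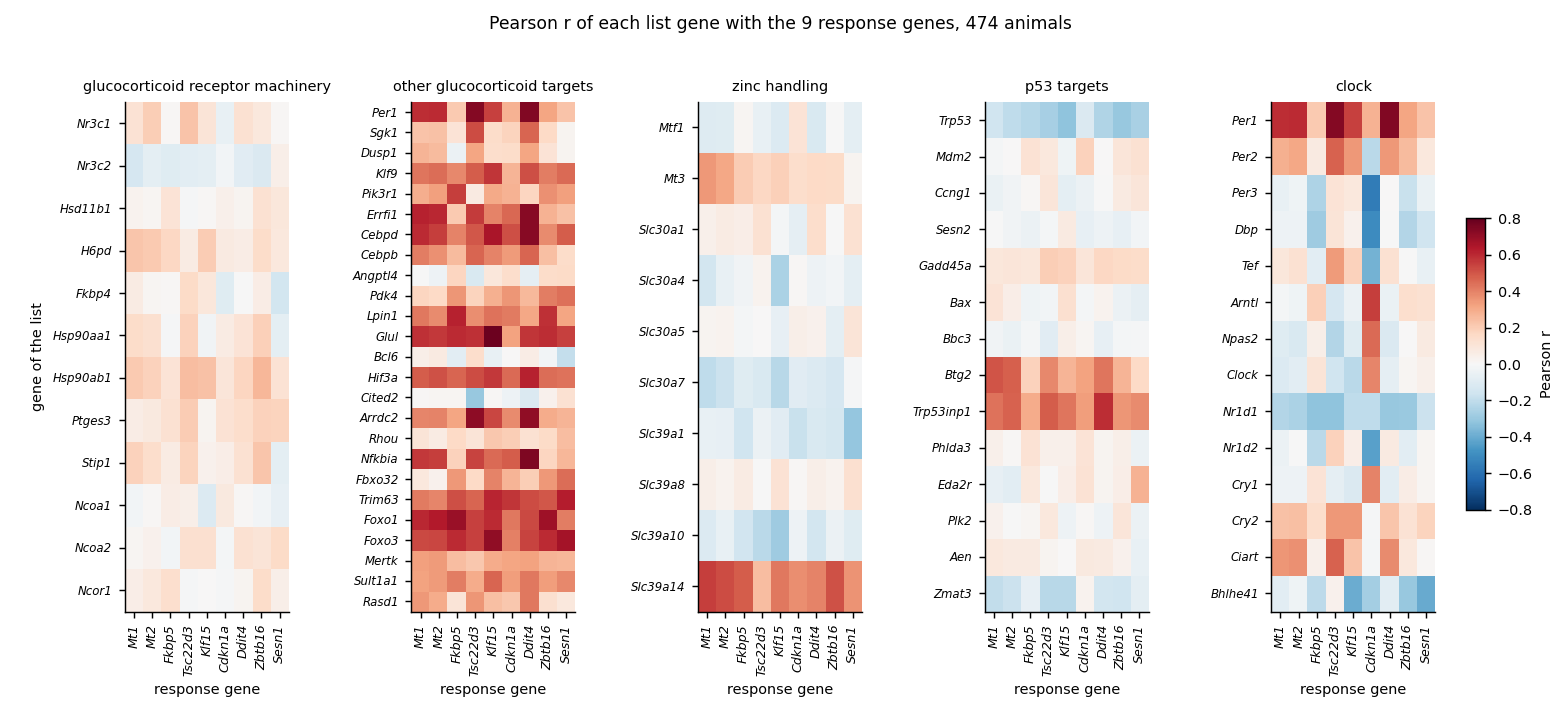
Pearson r (color) of each gene of 5 lists with the 9 response genes over all animals. The receptor machinery is pale throughout, most other glucocorticoid targets are red in all columns, and the Cdkn1a column of the clock list holds 4 genes at 0.3 or above and 4 at -0.3 or below, where no other column has more than 1 at -0.3 or below.

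Most cell type lists had weak relations with these genes. The endothelial score had r from -0.40 (Tsc22d3) to -0.02 (Cdkn1a), with -0.36 for Mt2 and -0.32 for Mt1 and Klf15. Its single genes were uneven, from -0.62 to 0.21 over the 9 genes. With Mt2, Kdr had r = -0.53, Tek -0.29, Cdh5 -0.26, Emcn -0.22 and Pecam1 0.02. Scores of slow fibre, adipocyte, macrophage, fibroblast, erythroid and Schwann cell genes had r between -0.19 and 0.15 with all 9, and that of skeletal muscle fibre genes from -0.03 (Cdkn1a) to 0.22 (Tsc22d3). Single macrophage genes ran from -0.15 to 0.39, wider than their score. Markers of skeletal muscle fibres, such as Ckm and Acta1, were abundant in every library, with a summed level of 40222 CPM or more, which goes with the tissue label. The part of blood vessel content in the pair correlations was not tested beyond the adjustment given above.

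In all, 1179 relations between the 9 genes and 131 list genes were computed, and 51.2% of them had an adjusted p under 0.05 by permutation with 100000 resamples. With this many animals, an r near 0.1 passes that threshold, so the counts above use r of at least 0.3. All of these values come from the same libraries.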

How the data were processed

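RNA-seq libraries came from 474 animals, 235 labelled female and 239 male. According to the methods of the study, polyadenylated RNA gave read pairs, both mates were aligned as single reads to a transcriptome of the founder strains, and EMASE in the GBRS package gave estimated counts per gene. The authors deposited these expected counts per gene unnormalised, 68.6% of them whole to within 1e-06, so read ends and not fragments are counted. They also deposited values close to log2, the variance stabilising transform (VST) of DESeq2, described as cleared of batch effects. A VST recomputed here without a batch term had r = 0.9996 with it. The submitters' processing notes name GRCm38 and DESeq2, and 99.5% of deposited gene starts equalled GENCODE M21. Versions of the aligner and counter and the use of strand are not given in the sources used here.

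Expected counts were rounded and tested in R 4.3.3 with edgeR 4.0.16 (TMM, filterByExpr with a minimum count of 10 over the 10 groups, quasi-likelihood F-test, Benjamini-Hochberg over 18823 genes, 1789 removed, threshold 0.05). Sex was tested with generation as covariate, generation with sex, and their interaction with both. Stretches of library numbers, each at most 96 long and cut wherever more than 3 numbers were missing, were tested with sex and generation. The spread was tested with limma 3.58.1 on absolute deviations from group medians. Correlations used VST residuals after sex and generation and 2-sided permutation with 100000 resamples, in Python 3.11.15 (scipy 1.17.1, pandas 2.3.3, numpy 2.4.6, matplotlib 3.10.9). Scripts were tested on simulated data with known changes. Alternatives were DESeq2 1.42.0, other scalings and filters, the VST with limma, log2 CPM with a prior count of 2, added stretches or marker scores, single stretches or generations, and libraries left out.

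Labels gave each animal's sex and generation. A library went with its label when Xist was at least 50 CPM and Ddx3y under 3 counts in females, or Xist under 5 and Ddx3y at least 50 CPM in males. The wave used by the study as covariate is not in the labels. In the count table the columns DO048 and DO308 are swapped against the order of samples, as are DO309 and DO310, and their names were taken as right. The interval printed for Ddit4 is that of the estimated difference between the sexes and does not cover the spread of single animals. The genes and lists were chosen with earlier results of these data known. Named are all 9 genes, up to 3 called genes of each list per direction of the sex difference and 3 by generation, the 3 most alike genes and the most alike neighbour of each gene, and Nr3c1, Hsd11b1, Per1 and Mtf1. List genes named for their correlation were chosen after their values were seen.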

Additional observations from a re-analysis of the deposited data

Results flagged for a closer look

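The 10 pairs whose correlation differed between the sexes past the adjusted threshold are listed for a closer look, each as male minus female Pearson r over all animals. The difference was -0.39 for Fkbp5 with Sesn1, -0.32 for Zbtb16 with Sesn1, -0.26 for Cdkn1a with Zbtb16, -0.25 for Fkbp5 with Cdkn1a, -0.23 for Klf15 with Zbtb16 and -0.19 for Fkbp5 with Klf15. Among the metallothionein pairs it was -0.21 for Mt2 with Tsc22d3, -0.19 for Mt2 with Ddit4, -0.17 for Mt1 with Tsc22d3 and -0.17 for Mt1 with Ddit4. All 10 were lower in males. In log2 CPM 10 pairs passed as well. Without the 5 libraries that missed the cutoffs of their label 9 passed (Fkbp5 with Klf15 had an adjusted permutation p of 0.0529), and 8 passed without DO349. The spread between animals of Fkbp5 and of Cdkn1a was also lower in males, and its part in these differences was not tested. Groups of 45 to 50 animals are too large for the test of single outlying samples, so none was run.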

How the results depend on the processing

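No paired analysis was possible because each animal gave 1 library and its number appears in 1 group only. The count of 8 genes called between the sexes was 5 with the marker scores added, 3, 5, 4 and 4 within stretches 1 to 4 of library numbers, and 4 and 3 within generations 19 and 21, where fewer animals were tested. Within stretch 5 and within each of generations 17, 18 and 23, 2 of the 8 lost the call. With limma on the VST 1 of the 8 lost it. Of the results for single genes between the sexes, 137 kept their direction and side of the threshold, 34 lost the call and 9 turned. Of called genes these were Fkbp5 within stretch 2 (0.0047, edgeR adjusted p = 0.987), and Mt1 (0.0256, edgeR adjusted p = 0.954) and Zbtb16 (0.0073, edgeR adjusted p = 0.968) within generation 21. Ddit4, not called, turned within stretches 1, 3 and 4 (0.0467, 0.181 and 0.0223), within generations 21 and 23 (0.190 and 0.0854) and with the marker scores (0.164). In log2 CPM the uncalled spread difference of Zbtb16 (-0.000224) and the uncalled correlation difference of Mt2 with Klf15 (0.000475) turned as well. The count of 2 genes between generations was 0, 1, 0, 0 and 1 within stretches 1 to 5 and 4 without DO349, the cause of which was not tested beyond that 1 library. Klf15 passed between generations with DESeq2 (adjusted p = 0.0402), with its size factors in edgeR (adjusted p = 0.0497) and with genes of at least 1 CPM on average (edgeR adjusted p = 0.0393). The count of 2 genes between stretches was 1 with limma on the VST, and Sesn1 had an adjusted p of 0.0509 with total count scaling in edgeR. Of the pair correlations, 5 lost the call within a stretch or in males alone, and the rest kept it. Leaving out DO349, adding clock components and leaving out the 5 libraries from the test of the sex difference in correlation were chosen after seeing the data. Total counts of 35.9 mega-counts or more left Mt1 and Mt2 with the lowest counts of the 9 genes, so their small values are the least precise.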
